A study of Mus musculus with 28 samples.

Results

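Microglia are the resident macrophages of the brain, and 9 genes that mark their identity or their activation were followed here in the wall of the mouse lateral ventricle. The genes were listed by name, Aif1, Cx3cr1, P2ry12, Tmem119, Csf1r, Trem2, Tyrobp, Itgam and Spp1, and each was matched through its symbol and gene identifier. A row was read for 8 of the 9 in the tissue table of 36358 genes, and for all 9 in the cell table of 37974 genes. Cx3cr1, the fractalkine receptor gene, was not analysed here in the tissue.

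The tissue was the EZ-SEZ/SVZ, the ependymal and subependymal or subventricular zone that lines the lateral ventricle beside the striatum, from C57BL/6 mice aged 3 weeks or 18 months, with 3 samples of each age. The same region of mice aged 1 month or 24 months gave 22 single cells, sorted by size and complexity and labelled Prom1+ (3 cells of each age), Gfap+ (2 of 1 month and 5 of 24 months) or Dlx2+/Dcx+ (5 of 1 month and 4 of 24 months). No treatment or altered allele is named for any group. The labels name no animal, so the p-values measure the spread between these samples, which may be technical, and each subpopulation and age of cells counts as 1 sample. All values are FPKM, a level that divides a gene's fragments by transcript length and by the fragments mapped in its library, so that levels of different genes compare per length.

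Microglia populate the brain early in development and are kept alive there by signalling through Csf1r, the receptor for Csf1 and Il34. In the undisturbed brain they carry P2ry12, Tmem119 and Cx3cr1, receptors and surface proteins often called homeostatic. In aged, demyelinating or diseased tissue they are known to take up another state, which depends in part on the receptor Trem2 and its signalling adaptor Tyrobp, and in which Spp1, Cst7, Itgax, Clec7a, Apoe and lysosomal protease genes are high. Aif1 encodes the calcium-binding protein Iba1, the usual stain for these cells, and Itgam encodes the integrin chain CD11b. Both are shared with other macrophages.

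The start of transcription is where the controls of these genes meet, and RefSeq promoter sequences of build GRCm38.p6, 250 bases before to 50 bases after the start, were matched for 6 of the 9 genes. Shown are the members with the largest age difference (Spp1), with differences in the same direction (Aif1 and Trem2) and with lower mean level at 18 months (P2ry12). Capitals mark the letters AGGAAG on either strand, found within many binding sites of ETS factors such as PU.1, the product of Spi1 that microglia depend on. The strands are those of the genes, and the windows are chr5:104434861-104435160 (plus strand) for Spp1, chr17:35176003-35176302 (minus strand) for Aif1, chr17:48346151-48346450 (plus strand) for Trem2 and chr3:59262936-59263235 (minus strand) for P2ry12.
Spp1: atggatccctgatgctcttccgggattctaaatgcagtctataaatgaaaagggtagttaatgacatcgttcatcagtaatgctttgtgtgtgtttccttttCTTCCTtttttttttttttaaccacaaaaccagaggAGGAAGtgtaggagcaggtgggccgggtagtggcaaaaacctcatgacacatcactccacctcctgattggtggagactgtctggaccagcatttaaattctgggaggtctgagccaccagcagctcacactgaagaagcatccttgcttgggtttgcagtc
Aif1: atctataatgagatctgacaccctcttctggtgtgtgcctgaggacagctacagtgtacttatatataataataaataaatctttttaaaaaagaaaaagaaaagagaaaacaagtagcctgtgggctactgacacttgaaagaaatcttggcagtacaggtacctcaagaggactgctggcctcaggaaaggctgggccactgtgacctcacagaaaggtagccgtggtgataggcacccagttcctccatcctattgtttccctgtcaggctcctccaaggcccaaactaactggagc
Trem2: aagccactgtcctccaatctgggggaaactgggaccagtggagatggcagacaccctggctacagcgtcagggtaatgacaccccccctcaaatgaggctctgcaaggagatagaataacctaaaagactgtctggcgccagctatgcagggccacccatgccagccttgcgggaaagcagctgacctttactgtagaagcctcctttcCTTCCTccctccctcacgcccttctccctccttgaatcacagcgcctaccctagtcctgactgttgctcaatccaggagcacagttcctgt
P2ry12: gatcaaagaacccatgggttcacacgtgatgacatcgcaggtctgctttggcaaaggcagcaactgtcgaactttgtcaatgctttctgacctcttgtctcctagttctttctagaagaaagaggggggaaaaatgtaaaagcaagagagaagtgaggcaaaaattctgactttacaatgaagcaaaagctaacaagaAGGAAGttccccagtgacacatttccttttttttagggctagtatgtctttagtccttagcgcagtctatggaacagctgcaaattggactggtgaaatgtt

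The Spp1 window holds 2 matches, which begin 148 and 112 bases upstream of the start, on the minus and the plus strand of the gene. The Trem2 window holds 1 that begins 41 bases upstream, on the minus strand, and the P2ry12 window 1 that begins 52 bases upstream, on the plus strand. The letters were not in the Aif1 window or in that of Cx3cr1, and were there 2 times in that of Itgam. They occur in 35.4% of the 32851 promoters of the same length, so a match is common, and it is a description of the letters and not of a site in use. Of other motifs searched on both strands, CACGTG, the E-box, was found in the P2ry12 window, 228 bases upstream, and in 7.15% of all promoters. TGANTCA, the AP-1 motif, was found in the Trem2 window, 9 bases upstream, and in 7.81% of all promoters. Neither overlaps a match of AGGAAG. RefSeq gives Spp1 a second start whose window holds 1 match of AGGAAG.

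In the tissue, the activation gene Spp1 and the adaptor gene Tyrobp rose between 3 weeks and 18 months, and the receptor gene Csf1r differed little. The identity gene Aif1, as well as Trem2 and Itgam, had higher means at 18 months without being called. The homeostatic genes Tmem119 and P2ry12 had lower means at 18 months, also without being called, and P2ry12 overlapped between the ages. Every one of the 8 genes had 0.475 FPKM or more in every sample. limma was applied to log2(FPKM + 1), a scale that understates the change of low genes, over 12287 genes with at least 1 FPKM in at least 3 samples, a filter that all 8 passed. A gene is said to have risen or fallen where the unadjusted p was under 0.05 and the absolute log2 fold change above 1, and p-values were also adjusted over all genes tested. By these limits 2 of the 8 genes were called, both higher, against 3.9% of all genes tested in either direction and 1.83% higher. Adjusted p was under 0.05 for 1 of the 8, Spp1, against 4.92% of all genes tested.

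**Figure D1:**
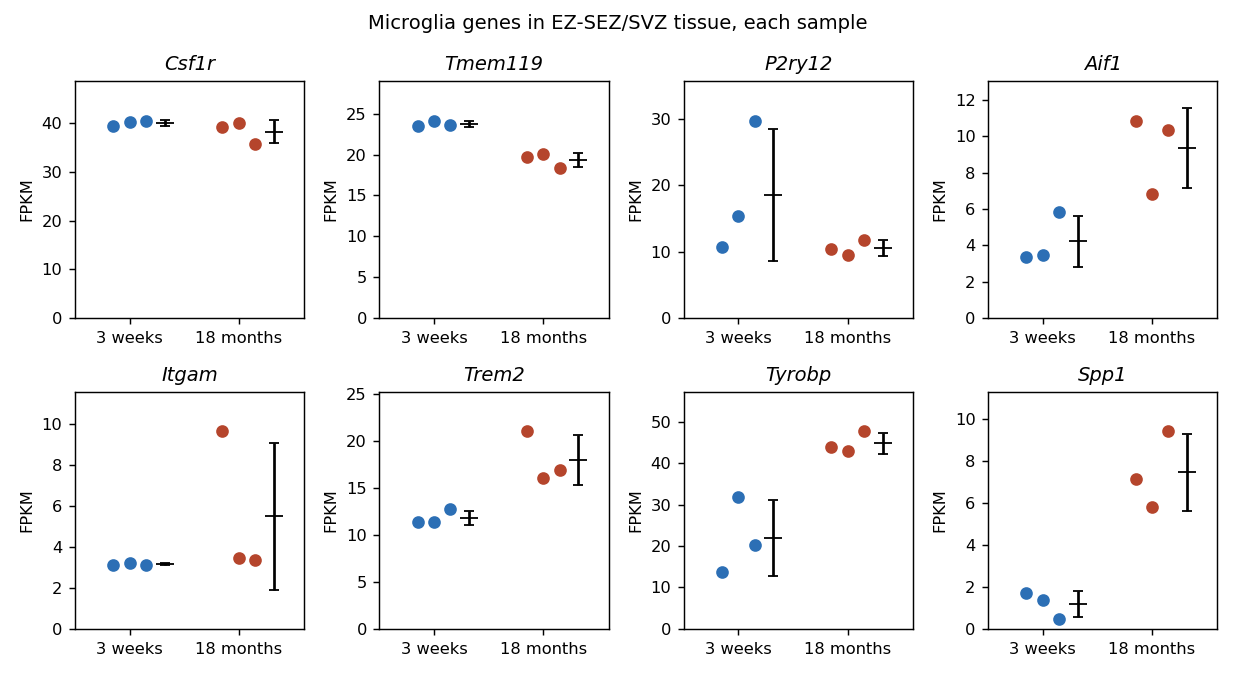
FPKM (vertical axes, each from 0) of the 8 genes in the 3 tissue samples of 3 weeks (blue) and the 3 of 18 months (red), in the order of sample numbers 1 to 3, with the mean and SD (n = 3) as a black bar beside them. The 18-month samples lie above all 3-week samples for Aif1, Itgam, Trem2, Tyrobp and Spp1, and below them for Tmem119.

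For 6 of the 8 genes the 2 ages did not overlap. Aif1, Trem2, Tyrobp, Itgam and Spp1 were higher in every 18-month sample than in any 3-week sample, a pattern that 20.9% of all genes tested showed. Tmem119 was lower in every 18-month sample, as were 12.2% of all genes tested. In tissue, fewer cells of a type and less RNA per cell cannot be told apart. One library, replicate 1 of 18 months, correlated over genes with the 3-week samples (r = 0.888 to 0.894 on the log2 scale) as closely as with the other samples of its age (0.889 and 0.892), so values without it are given for the members that it moves most. Over all genes tested the median log2 fold change was 0.09.

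Of the receptor genes, Csf1r (chromosome 18 of GRCm38, 61100598 to 61132149, plus strand) was the most abundant member at 3 weeks. It had 39.4, 40.3 and 40.5 FPKM in the 3 samples of 3 weeks and 39.3, 40.0 and 35.6 in those of 18 months. All 6 samples lay close together and the ages overlapped. The means were 40.1 ± 0.576 and 38.3 ± 2.32 FPKM (SD, n = 3 for each age, as for every mean in the tissue), and the log2 fold change was -0.07 (standard error, SE, 0.09, 95% interval -0.30 to 0.17, adjusted p = 0.703). Exons of Csf1r share 873 bases with Hmgxb3 on the opposite strand, and whether reads were assigned by strand is not given in the sources used here. Its known ligands were higher in the mean at 18 months without being called. Csf1 had 13.2 ± 1.22 FPKM at 18 months and 8.52 ± 1.82 at 3 weeks, a log2 fold change of 0.59 (SE 0.17, adjusted p = 0.119). For Il34, a ligand made largely by neurons, the log2 fold change was 0.40 (SE 0.19, adjusted p = 0.261).

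Trem2 (chromosome 17, 48346401 to 48354147, plus strand), a lipid-sensing receptor of the myeloid surface, had 21.0, 16.0 and 16.9 FPKM at 18 months and 11.3, 11.3 and 12.7 at 3 weeks. The ages did not overlap, and the 3-week samples lay within 1.38 FPKM of each other. The mean was 1.52 times as high at 18 months, with a log2 fold change of 0.56 (SE 0.14, adjusted p = 0.0824), which is under the limit for a call. Without replicate 1 of 18 months, the highest of the 6, it was 0.45.

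Tyrobp (chromosome 7, 30413760 to 30417585, plus strand) encodes DAP12, the adaptor that carries the signal of Trem2 into the cell. It was the most abundant member at 18 months, with 43.9, 42.8 and 47.7 FPKM, and had 13.6, 31.9 and 20.3 FPKM at 3 weeks. The 18-month samples were alike, while the 3-week samples were spread widely, all below them. Tyrobp rose by 1.07 on the log2 scale (SE 0.30, adjusted p = 0.105). The call was lost without replicate 1 of 3 weeks, the lowest sample, where the log2 fold change was 0.79. Of its partners, the other adaptor Hcst was under the filter, at 0.368 to 1.32 FPKM, and the kinase gene Syk had a log2 fold change of -0.10 (adjusted p = 0.676).

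Itgam (chromosome 7, 128062640 to 128118491, plus strand) had 9.66, 3.46 and 3.38 FPKM at 18 months and 3.14, 3.21 and 3.13 at 3 weeks. A single 18-month sample, replicate 1, was high, and the other 5 lay between 3.13 and 3.46 FPKM, so that the ages, although they did not overlap, were separated by 0.169 FPKM only. The log2 fold change was 0.51 (SE 0.37, adjusted p = 0.446), and 0.09 without that sample. Itgam shares 3450 bases of exon, on the same strand, with the annotated gene Gm49368. In the sample with high Itgam, Gm49368 was listed at 0, and in the other 5 it had 3.45 to 4.85 FPKM. The sum of both genes was 9.66, 7.94 and 8.24 FPKM at 18 months and 7.81, 7.31 and 6.57 at 3 weeks, means of 8.61 ± 0.919 and 7.23 ± 0.622. With the sum in place of Itgam, an alternative chosen after the data were examined, the log2 fold change was 0.22 (SE 0.13, adjusted p = 0.355). Itgb2, the integrin chain that pairs with Itgam to form complement receptor 3, rose by 1.01 on the log2 scale (SE 0.17, adjusted p = 0.0353), from 2.89, 2.96 and 3.51 FPKM at 3 weeks to 9.12, 6.58 and 6.35 at 18 months. Replicate 1 of 18 months was again the highest, but here the other samples of that age also lay well above those of 3 weeks. Itgb2 sat at the limit, and its log2 fold change was 0.86 without replicate 1 of 18 months, 0.97 and 0.98 without replicates 1 and 2 of 3 weeks, and 0.93 with quantile normalization, with an adjusted p of 0.0383 to 0.133 when a sample was left out.

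**Figure D2:**
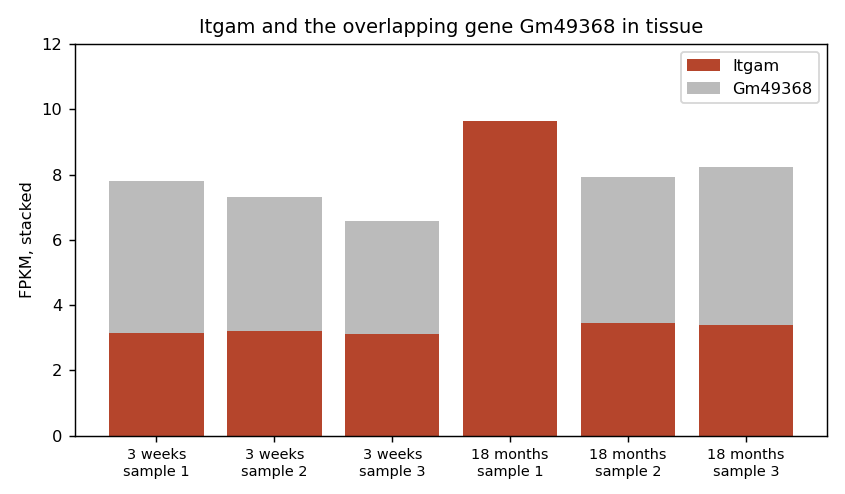
Stacked FPKM (vertical axis, from 0) of Itgam (red) and the overlapping gene Gm49368 (grey) in each of the 6 tissue samples. Replicate 1 of 18 months has 9.66 FPKM of Itgam and none of Gm49368, whereas the other 5 samples have both.

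Among the identity genes, Aif1 (chromosome 17, 35170991 to 35176068, minus strand) had 10.9, 6.83 and 10.3 FPKM at 18 months and 3.34, 3.48 and 5.86 at 3 weeks. The ages did not overlap, with replicate 2 of 18 months the lowest of its age and replicate 3 of 3 weeks the highest of its own. The mean was 2.21 times as high at 18 months, 9.34 ± 2.18 against 4.23 ± 1.42 FPKM, and the log2 fold change of 0.99 (SE 0.26, 95% interval 0.36 to 1.63, adjusted p = 0.0909) fell just short of the limit of 1. It passed the limit without replicate 2 of 18 months, at 1.18, without replicate 3 of 3 weeks, at 1.21, with a pseudocount of 0.1, at 1.14, and with TPM scaling, at 1.14.

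Tmem119 (chromosome 5, 113793729 to 113800516, minus strand), a surface protein used to tell microglia from other macrophages, had 19.7, 20.1 and 18.4 FPKM at 18 months and 23.5, 24.2 and 23.6 at 3 weeks. The spread within each age was narrow, and every 18-month sample was lower. The mean at 18 months was 0.815 times that at 3 weeks, and the log2 fold change was -0.28 (SE 0.09, 95% interval -0.52 to -0.05, adjusted p = 0.148).

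P2ry12 (chromosome 3, 59216272 to 59262871, minus strand), a receptor for ADP that guides microglial processes to injury, had 10.46, 9.52 and 11.8 FPKM at 18 months and 10.7, 15.4 and 29.8 at 3 weeks. The ages overlapped, since replicate 1 of 3 weeks lay among the 18-month samples, and replicate 3 of 3 weeks was far above the rest. The log2 fold change was -0.64 (SE 0.36, 95% interval -1.53 to 0.24, adjusted p = 0.334). It was -0.26 without that high sample and -0.96 without replicate 1 of 3 weeks.

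Spp1 (chromosome 5, 104435118 to 104441050, plus strand) encodes osteopontin, a secreted phosphoprotein that binds integrins and CD44. The gene shares 309 exonic bases with the annotated gene Gm42793 on the same strand. It had 7.13, 5.81 and 9.40 FPKM at 18 months and 1.69, 1.40 and 0.475 at 3 weeks, so that it was the least abundant of the 8 genes in the young tissue. Every 18-month sample had over 3 times the highest 3-week value. Spp1 rose by 1.97 on the log2 scale (SE 0.28, 95% interval 1.27 to 2.68, adjusted p = 0.0241), and the ratio of the mean levels was 6.27. A figure of the study names Spp1 in an analysis of these same samples, so this is not independent evidence of its direction. Spp1 was called with each sample left out in turn, but its adjusted p was 0.0608 without replicate 2 and 0.0749 without replicate 3 of 18 months, and 0.056 without replicate 1 and 0.0842 without replicate 2 of 3 weeks. Of the known Spp1 receptors, Cd44 (0.219 to 1.23 FPKM) and the integrin chain Itgb3 (0.459 to 0.595 FPKM) did not pass the filter and were not tested. Itgav had a log2 fold change of 0.16 (adjusted p = 0.554), Itgb1 of -0.45 (adjusted p = 0.167) and Itgb5 of 0.42 (adjusted p = 0.0661).

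**Figure D3:**
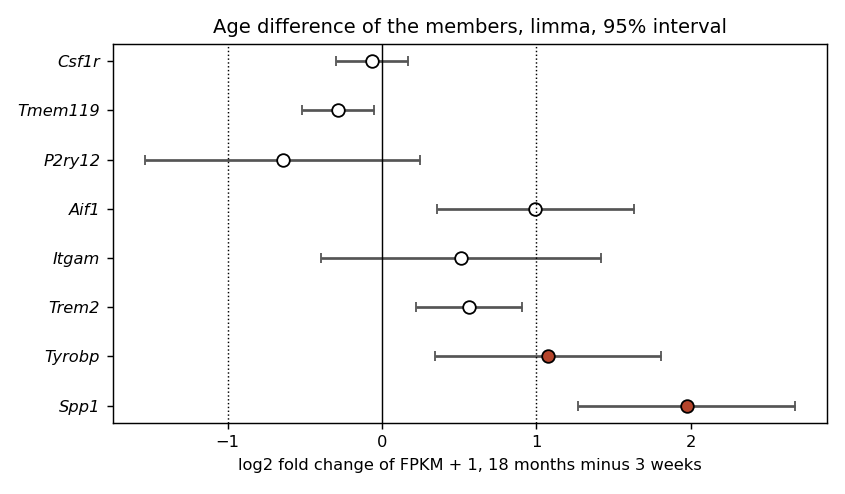
Log2 fold change of FPKM + 1, 18 months minus 3 weeks (horizontal axis), of the 8 genes with the 95% interval from limma, where filled points are called and dotted lines mark the limits of -1 and 1. Spp1 (1.97) and Tyrobp (1.07) are past the upper limit and Aif1 (0.99) lies beside it, while the interval of Csf1r (-0.30 to 0.17) spans 0.

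The order of the levels changed between the ages. At 3 weeks the means ran from Csf1r (40.1 FPKM) through Tmem119 (23.8), Tyrobp (21.97), P2ry12 (18.6), Trem2 (11.8), Aif1 (4.23) and Itgam (3.16) to Spp1 (1.19). In that order Tmem119 and Tyrobp, Tyrobp and P2ry12, and P2ry12 and Trem2 overlapped between neighbours, and the other neighbours did not. At 18 months the order was Tyrobp (44.8 FPKM), Csf1r (38.3), Tmem119 (19.4), Trem2 (18.0), P2ry12 (10.6), Aif1 (9.34), Spp1 (7.45) and Itgam (5.50). There the ranges of Tyrobp, Csf1r and Tmem119 were apart from each other, as were those of Trem2 and P2ry12, while Tmem119 overlapped Trem2, and P2ry12, Aif1, Spp1 and Itgam overlapped from one to the next. Tyrobp was below Csf1r in each 3-week sample and above it in each 18-month sample.

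Since Csf1r differed little, each gene was also set against Csf1r within the same sample, a ratio that scaling between samples cannot alter and that was chosen after the values were seen. Spp1 per Csf1r was 0.146 to 0.264 at 18 months and 0.0117 to 0.0428 at 3 weeks, a ratio of geometric means of 7.37 (4.96 to 9.48 with a sample left out). Aif1 was 2.35 times, Tyrobp 2.27 times, Itgam 1.603 times and Trem2 1.59 times as high per Csf1r at 18 months, but Itgam 1.15 times without replicate 1 of 18 months. Tmem119 per Csf1r was 0.501, 0.502 and 0.516 at 18 months and 0.597, 0.600 and 0.581 at 3 weeks, a ratio of 0.854, and the ages lay apart although the difference was small. These 6 ratios did not overlap between the ages and had the smallest p that 3 samples against 3 can give, 0.1, in a two-sided exact permutation test. P2ry12 per Csf1r overlapped, at 0.652 times (exact permutation p = 0.2). With a smallest p of 0.1, no ratio could pass a threshold of 0.05, and adjustment over the 7 ratios was therefore not informative.

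**Figure D4:**
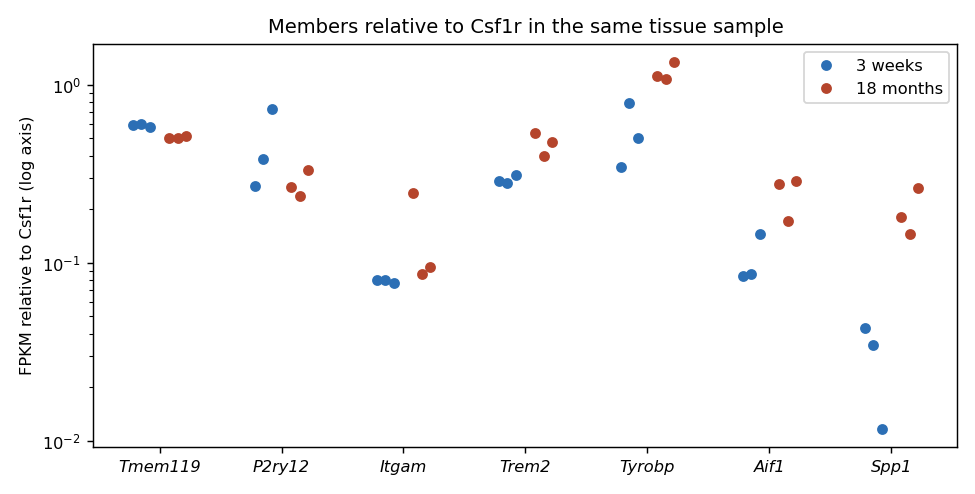
FPKM of 7 genes relative to Csf1r in the same tissue sample (vertical log axis), for 3 weeks (blue) and 18 months (red), 3 samples each. Spp1 moves from 0.0117 to 0.0428 up to 0.146 to 0.264, and Tmem119 stays between 0.501 and 0.600 with the 18-month samples below.

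Lists of other genes known for microglia were read in the same fit. Of 15 further homeostatic genes, 13 had a row and were tested, and none was called, with an unadjusted p under 0.05 for 4 of the 13, against 24.3% of all genes tested. Their median log2 fold change was -0.16 against 0.09 over all genes tested, with 4 higher in the mean. The largest was the orphan receptor gene Gpr34, at 1.37 (SE 1.04, adjusted p = 0.468), which had 13.9 FPKM in 1 sample of 18 months and 0.734 in another. P2ry13, a receptor for ADP like P2ry12, had -1.19 (SE 0.99, adjusted p = 0.51) with 0.0171 FPKM in 1 sample and 10.4 to 11.3 in the rest. Mertk, a receptor for dying cells, had -0.80 (adjusted p = 0.298), and Ltc4s, leukotriene C4 synthase, -0.77 (SE 0.18, adjusted p = 0.0785) with every 18-month sample lower (4.17 to 6.32 against 8.51 to 10.9 FPKM). Gpr34 and P2ry13 thus had samples near 0 beside samples of several FPKM within 1 age.

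Of 26 genes known for activated microglia, 20 had a row and 19 were tested. Cst7, Itgax, Clec7a and Ccl4 were below 1 FPKM in each 3-week sample and passed the filter only through the 18-month samples, so these 4 could enter only as higher and are left out of the counts. Of the other 15, 12 were higher in the mean at 18 months (58.8% of all genes tested) and 2 were called, both higher (1.83% of all genes tested). Their median was 0.48 on the log2 scale, and for 8 of the 15 every 18-month sample was above every 3-week sample (20.9% of all genes tested). Cst7, an inhibitor of lysosomal cathepsins, had 0.166, 0.197 and 0.106 FPKM at 3 weeks and 3.65, 1.95 and 2.62 at 18 months, a difference of 1.67 on the log2 scale (SE 0.18), with an adjusted p of 0.0271 in the fit with no filter. Ctsz, a lysosomal cathepsin, rose by 1.12 (SE 0.26, adjusted p = 0.0754), from 34.7, 18.0 and 33.9 FPKM to 62.3, 64.6 and 58.0. Cd52, a small glycoprotein of leukocytes, rose by 1.12 (SE 0.32, adjusted p = 0.11), from 6.91, 5.71 and 10.4 FPKM to 24.5, 11.8 and 18.2. For each of these genes all 18-month samples were above all samples of 3 weeks. The study names Cst7 and Itgax in an analysis of these samples too, so neither is independent evidence of its direction. Ctsz was not called without replicate 2 of 3 weeks (0.83), nor Cd52 without that sample (0.96) or without replicate 1 of 18 months (0.89). Timp2, an inhibitor of metalloproteinases, had 1.44 (adjusted p = 0.266), with 115 FPKM in replicate 3 of 18 months and at most 24.2 elsewhere. Itgax, which encodes the integrin chain CD11c, and Clec7a, the receptor Dectin-1, had log2 fold changes of 0.98 and 0.99, under the limit for a call, with an adjusted p of 0.0352 and 0.0706 in the fit with no filter. Their log2 fold changes were 2.28 and 1.75 with a pseudocount of 0.1, and 1.74 and 1.51 with TPM scaling. Those fits filter low values too, and passing the limit there is not counted as support. Apoe, a lipoprotein also made in quantity by astrocytes, had 2276 ± 329 FPKM at 18 months and 1620 ± 91.3 at 3 weeks, a log2 fold change of 0.48 (adjusted p = 0.0996).

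**Figure D5:**
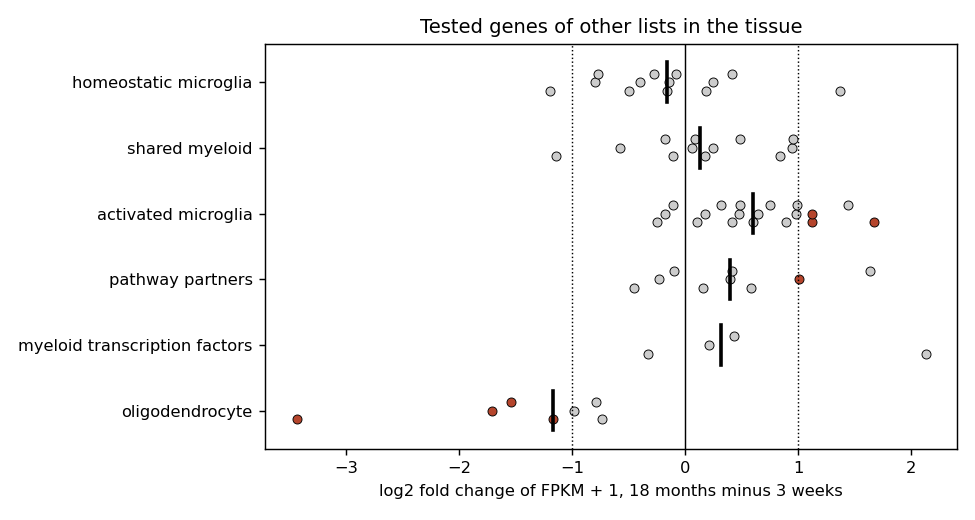
Log2 fold change of FPKM + 1, 18 months minus 3 weeks (horizontal axis), of each tested gene of 6 lists, where red points are called, black bars are medians and dotted lines mark the limits of -1 and 1. The median is 0.60 for the 19 activated microglia genes, 4 of which, Cst7 among them, passed the filter only through the 18-month samples (0.48 without these 4), -0.16 for homeostatic genes and -1.16 for oligodendrocyte genes.

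Of 15 genes shared by myeloid cells, 12 were tested and none was called, with a median of 0.13 and an unadjusted p under 0.05 for 2. Ctss, cathepsin S, had a log2 fold change of 0.95 (SE 0.12, adjusted p = 0.0176, and 0.0343 to 0.0819 with a sample left out) and 114 to 140 FPKM at 18 months against 60.2 to 70.7 at 3 weeks. The complement genes C1qb and C1qa had -1.15 (adjusted p = 0.366) and 0.94 (adjusted p = 0.622), and Fcgr3, an Fc receptor gene, 0.83 (adjusted p = 0.371). C1qa ranged from 10.9 to 160 FPKM over the 6 samples without a separation of the ages. Of 13 partner genes, ligands, receptors and adaptors of the members, 9 were tested with a median of 0.40, and Itgb2 was the one called. Cx3cl1, the ligand of the Cx3cr1 receptor, had 1.63 (SE 1.66, adjusted p = 0.591), with 276, 17.8 and 252 FPKM at 18 months and 270, 21.4 and 6.33 at 3 weeks. Of 5 myeloid transcription factor genes, 4 were tested and none was called, with an unadjusted p under 0.05 for 1. Spi1 had -0.32 (adjusted p = 0.434), Irf8 0.21 (adjusted p = 0.473) and Cebpa 0.43 (adjusted p = 0.143).

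Markers of other cells that could carry the members were low. Of 8 genes known for border macrophages 6 had a row, and none of the 6 passed the filter. These, among them Mrc1 (0.165 to 0.467 FPKM), Cd163 (0.571 to 1.09), Pf4 (0.205 to 0.615) and Siglec1 (0 to 0.102), summed to 1.61 to 3.02 FPKM at 18 months and 2.42 to 2.83 at 3 weeks, and the ages overlapped. Of 13 blood leukocyte genes, 12 were below 1 FPKM in all 6 samples. Of these Cd3e had 0.125 to 0.388 FPKM at 18 months and 0.0331 to 0.038 at 3 weeks, Ccr2 0.0512 to 0.0874 and 0.0233 to 0.0415, and Cd3g, Cd8a and Nkg7 were above 0 in every 18-month sample and listed at 0 in every 3-week sample, all too low to be tested. The exception in level was Ly6c2, which fell by 1.54 on the log2 scale (adjusted p = 0.143), with 4.90, 0.681 and 1.05 FPKM at 18 months and 8.87, 5.82 and 6.36 at 3 weeks. That call was lost without replicate 2 or 3 of 18 months or replicate 1 or 3 of 3 weeks (-1.19 to -1.59), and without replicate 1 of 18 months the log2 fold change was -2.09 (adjusted p = 0.0189). The sum of the list was 2.002 to 7.49 FPKM at 18 months and 6.23 to 9.79 at 3 weeks, but without Ly6c2 the sum of the other 12 was 1.32 to 2.59 FPKM at 18 months (median 1.73) and 0.407 to 1.72 at 3 weeks (median 0.919).

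Marker genes of some other cell types of the tissue also differed between the ages. Of 9 oligodendrocyte genes, 7 were tested, all 7 were lower in every 18-month sample (12.2% of all genes tested) and 4 were called (3.9% in either direction), among them Mbp (-3.44), Cldn11 (-1.70) and Mog (-1.16). The list summed to 3787 to 4492 FPKM at 18 months and 19950 to 22110 at 3 weeks, out of 297529 to 318909 FPKM in all, with Olig1 listed at 0 throughout. Since FPKM is a share of each library, a fall of this size leaves more of the scale to other genes, and its part in the differences of the members was not tested. Of the neuroblast genes Dlx2 (-1.71) and Dlx1 (-1.26) were called out of 6 tested, of 5 active stem cell genes 2 were called, among them Prom1 (-1.01, and -0.76 to -0.96 without replicate 1 of 18 months or replicate 1 or 2 of 3 weeks), and of the neuron genes Ppp1r1b (1.27) out of 4. None was called among 6 astrocyte, 3 ependymal, 5 endothelial, 2 choroid plexus, 3 fibroblast or mural and 6 housekeeping genes tested. Their medians were 0.43, 0.39, -0.15, 0.15, -0.77 and -0.01. The unadjusted p was under 0.05 for 1, 2, 2, 0, 1 and 1 of them. The fibroblast gene Col1a1, at most 0.826 FPKM at 18 months, passed the filter only through the 3-week samples. It could enter only as lower and is left out of these counts.

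The genes whose pattern over the 6 tissue samples was most like that of each member were read by Pearson's r of log2(FPKM + 1) over 12254 other named genes. With 6 samples such values are high for many genes, 268 genes being above 0.95 for Spp1 and 6 for P2ry12, and they describe these samples. For Spp1 the closest were Klhl4, Slc14a1 and Gpld1 (r = 0.996 to 0.997). For Aif1 they were Fam205a2, St6galnac4 and H2-DMb2 (0.992 to 0.996), for Tyrobp Gm14857, Dlc1 and Gm17168 (0.982 to 0.994) and for Trem2 Adamts1, Atp6ap1 and A930017K11Rik (0.990 to 0.994). For Itgam they were Fkbp1a, Zswim1 and H2-Ab1 (0.9751 to 0.989), for Tmem119 Cdc20, Tdp1 and Col23a1 (0.996 to 0.998), for Csf1r Hlf, Cacfd1 and Vkorc1 (0.989 to 0.993), and for P2ry12 6330562C20Rik, Atoh8 and Prkx (0.970 to 0.991).

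In the 22 single cells the members other than Cx3cr1 were listed at 0 in most or all cells. As a description of the labels, which rest on such markers, 8 neuroblast genes were above 1 FPKM in 95.8% of their values in Dlx2+/Dcx+ cells, 50% in Gfap+ cells and 20.8% in Prom1+ cells. For 9 oligodendrocyte genes the shares were 56.8%, 98.4% and 42.6%, and for 5 active stem cell genes 28.9%, 5.71% and 83.3%, in the same order. Actb, which encodes beta-actin and is used by every cell, was listed at 0 in all 6 Prom1+ cells, with medians of 19286 FPKM in Dlx2+/Dcx+ and 14847 in Gfap+ cells, so a listed 0 in this table cannot be read as the absence of a transcript. Aif1, P2ry12, Tmem119 and Spp1 were listed at 0 in all 22 cells. Leaving Cx3cr1 aside, 4 of 176 values were above 1 FPKM, each in another cell. Of the other lists, 15 homeostatic genes were above 1 FPKM in 16.3% of their values in Dlx2+/Dcx+, 9.52% in Gfap+ and 12.2% in Prom1+ cells, among them Tgfbr1, a receptor for transforming growth factor beta that many cells carry, in 7 of 9, 4 of 7 and 6 of 6 cells. Fcrls, P2ry13, P2ry6, Olfml3 and Gpr34 were listed at 0 in all 22 cells. The 26 activated genes were above 1 FPKM in 26.9%, 35.7% and 32.1% of their values, among them Apoe, Cd9 and Fabp5, genes that other cells of the brain also use. Of the activated genes called in the tissue, Ctsz was above 1 FPKM in 4 of 9 Dlx2+/Dcx+, 7 of 7 Gfap+ (median 180 FPKM) and 5 of 6 Prom1+ cells, and Cd52 in 2 of 7 Gfap+ cells (up to 358 FPKM), so neither is particular to microglia in this table. Ccl4 had 523 FPKM in 1 Gfap+ cell, while Cst7, Itgax and Clec7a were listed at 0 in all 22. Shared myeloid genes were above 1 FPKM in 1.48%, 0% and 2.22% of their values, and blood leukocyte genes in none. Of the border macrophage genes Siglec1 was above 1 FPKM in 4 of 9, 5 of 7 and 4 of 6 cells, at most 2.94 FPKM, and no other gene of that list was in any cell.

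The highest member value was Trem2 at 184 FPKM in replicate 4 of the 1-month Dlx2+/Dcx+ cells, where Tyrobp, Aif1 and Csf1r were listed at 0. Tyrobp had 118 FPKM in replicate 1 of the 24-month Gfap+ cells, where Trem2 was listed at 0. Both exceed every tissue sample, in which Trem2 reached 21.0 and Tyrobp 47.7 FPKM, but each stood alone in its cell among the members other than Cx3cr1. Csf1r had 1.84 FPKM in replicate 5 of the 24-month Gfap+ cells. Itgam had 1.51 FPKM in replicate 3 of the 24-month Dlx2+/Dcx+ cells and 0.0638 in a 24-month Prom1+ cell.

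Cx3cr1 (chromosome 9, 119901616 to 120069879, minus strand) was the exception, above 0 in 19 of the 22 cells at low values, with a median of 0.545 and a highest value of 4.07 FPKM. It was above 1 FPKM in 4 of 7 Gfap+ cells (1.27, 3.49, 3.96 and 4.07 FPKM), in 1 of 9 Dlx2+/Dcx+ cells (1.22 FPKM) and in none of 6 Prom1+ cells (0.311 to 0.926 FPKM). The Gfap+ cells above 1 FPKM came from both ages, 3 of 5 cells of 24 months and 1 of 2 of 1 month. The annotated span of Cx3cr1 also holds 9 other genes, with at most 78 shared exonic bases, and their part in these low values was not tested. No difference between cells was tested, because each subpopulation and age is 1 sample.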

How the data were processed

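The authors deposited FPKM values for 6 tissue samples and 22 Smart-seq2 cells, 1 column each. Per the labels the processing used HISAT2, StringTie and featureCounts with GRCm38, and versions and annotation release are not given in the sources used here. Samples were grouped by age and subpopulation in the labels, which repeat the single-cell protocol for the tissue. The members and gene lists were chosen with earlier results of these data known, and those named are the called genes and up to 4 largest differences per list. Some genes of these lists are not reported here.

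Positions came from the GENCODE annotation of GRCm38, which matched 99.2% of tissue and 86.7% of cell identifiers, and only 12.8% of the positions in the cell table overlapped it, so those were not used. No count of reads was used. Steps of low FPKM values put tissue depth at 36705915 to 44453243 steps per sample, but 59.4 to 60.4% of low values lay within 0.02 of a whole step and whether a step is a read or a fragment was not settled, so the precision of low values is approximate.

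In R 4.3.3, limma 3.58.1 was fitted to log2(FPKM + 1) of the tissue by lmFit with age alone and moderated by eBayes with a trend, with Benjamini-Hochberg adjustment, at limits after those of the study's own test on counts. The test was first tested on simulated data. The rest used Python 3.11.15, numpy 2.4.6, pandas 2.3.3, scipy 1.17.1 and matplotlib 3.10.9. Alternatives were a pseudocount of 0.1, no filter, TPM scaling, quantile normalization, a replicate block, each sample left out, and Itgam summed with Gm49368, the last added after the data were examined.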

Additional observations from a re-analysis of the deposited data

Results flagged for a closer look

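In 4 combinations of gene and group, from 3 groups of 4 or 5 cells, 1 cell stood apart from the rest, which were all listed at 0 for that gene. Trem2 had 184.4 FPKM in replicate 4 of the 1-month Dlx2+/Dcx+ cells, Tyrobp had 118.2 FPKM in replicate 1 of the 24-month Gfap+ cells, Csf1r had 1.838 FPKM in replicate 5 of the 24-month Gfap+ cells, and Itgam had 1.510 FPKM in replicate 3 of the 24-month Dlx2+/Dcx+ cells. A gap was measured with Dixon's ratio in the 7 combinations of gene and group that had 4 or 5 cells and any value above 0. Chance flags about 1 in 20 groups when values follow a normal distribution, and a single value among zeros always exceeds the limit. The tissue groups have 3 samples and were not examined in this way.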

How the results depend on the processing

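No tested member changed direction under the 12 alternatives, of which the sum with Gm49368 concerns Itgam alone. Spp1 was called under all of them and Tyrobp under all but the leaving out of replicate 1 of 3 weeks. The count of members called was 1 to 3 when a sample was left out, and 3 with a pseudocount of 0.1 and with TPM scaling, where Aif1 was added. Adjusted p was under 0.05 for 0 members with a replicate block, where Spp1 had 0.171, and for 0 or 1 when a sample was left out. The numbers are not shown to pair the samples, since the deviations of same-numbered samples from their age means had r = -0.10, -0.01 and -0.10. With the block 17 of all genes had adjusted p under 0.05 in place of 605, while the unadjusted calls numbered 505 in place of 479. Of the other microglia and partner genes 4 were called in the main fit, against 3.9% of all genes tested. Tested were 13 homeostatic, 12 shared myeloid, 19 activated, 9 partner and 4 transcription factor genes. The count was 8 with a pseudocount of 0.1, 8 with TPM scaling, and 2 to 8 when a sample was left out. Cst7, called in the main fit, passed the main filter only through the 18-month samples. So did Itgax and Clec7a, both among the 8 called with a pseudocount of 0.1 and with TPM scaling. Shares over all genes in those settings are not given here. The cause of these shifts in count was not tested. The median of all genes was 0.09, and 0.14 with TPM scaling and 0.10 with a pseudocount of 0.1, so changes on those scales are read against these shifts. Counting cells above 0 FPKM in place of 1 gave 24 member values in place of 9, and above 5 FPKM it gave 2. Low FPKM limits Spp1 at 3 weeks most.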
